A study of Mus musculus with 2 samples.

Results

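The genes described here are 10 WNT ligand genes of the mouse, Wnt3, Wnt9b, Wnt4, Wnt6, Wnt7a, Wnt7b, Wnt10a, Wnt10b, Wnt5a and Wnt11, in the epithelium of the embryonic mandible. They were taken by symbol from the gene lists of both single-cell libraries of the study, where all 10 were found, and they make up 10 of the 19 WNT genes listed. The gene list has 27998 entries for the E12.0 library and 31053 for the E9.5 library. The other 9 WNT genes are summarised as part of the pathway.

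Mandibular epithelium at E12.0 and whole mandibular arches at E9.5 were profiled, with 1 library for each stage and no replicate. By their labels, embryos of both stages carried K14Cre and the R26mT/mG reporter and received no treatment. In this cross, Cre driven by the keratin 14 promoter turns on a membrane GFP, so the sort for GFP at E12.0 kept epithelial cells with a history of keratin 14 promoter activity. The E12.0 library pooled 6 embryos of 1 litter, and its cells were sorted by FACS. The E9.5 library pooled 8 embryos and was not sorted, so it holds mesenchyme, endothelium and other cells beside ectoderm and endoderm. The gene list and the counting software version named in the file headers also differed between the libraries. Stage, sort, library, gene list and software version therefore cannot be told apart.

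WNT proteins are lipid-modified secreted ligands. The acyltransferase Porcn attaches the lipid, the carrier Wls takes the protein to the cell surface, and Frizzled receptors with the co-receptors Lrp5 and Lrp6 pass the signal to β-catenin, which acts with TCF/LEF factors on genes such as Axin2. Wnt5a and Wnt11 are best known for routes that do not need β-catenin, with Ror2 and Ryk among the receptors. In the embryonic face, ectodermal WNT ligands signal to the mesenchyme below, and WNT signaling in the oral epithelium is needed for the tooth placodes to form.

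Several of the genes lie side by side in the genome (GRCm38, GENCODE annotation). Wnt3 (chr11:103774150-103817957, plus strand) and Wnt9b (chr11:103727364-103749821, minus strand) are neighbours that are read in opposite directions, with their starts 24329 bases apart and no coding gene between them. Wnt6 (chr1:74771892-74785322) and Wnt10a (chr1:74791516-74804179) follow each other on the plus strand with a gap of 6193 bases. Wnt10b (chr15:98770712-98778150) lies on the minus strand of the same chromosome as Wnt7b (chr15:85535437-85582473), but its neighbouring WNT gene is Wnt1. Wnt4 (chr4:137277489-137299726), Wnt5a (chr14:28504750-28527448), Wnt7a (chr6:91363981-91411363) and Wnt11 (chr7:98835112-98855195) have no WNT neighbour. The sequences before the starts of the neighbours Wnt3 and Wnt9b and of the 2 most abundant ligand genes, Wnt4 and Wnt6, are shown here. All 4 were called higher in the E12.0 cells outside the gates that had Tfap2b, which encodes a factor of the AP-2 family. That split was made after values had been seen. Wnt5a and Wnt7b were called higher there too, but no window was on hand for them. The 4 genes shown differed from each other in other groups below, and a part of AP-2 factors was not tested. The sequences are from RefSeq (GRCm38.p6), run 5′ to 3′ on the strand of the gene, and end at the last base before the start in both annotations. Capitals mark the AP-2 motif GCCNNNGGC, which reads the same on both strands.
Wnt3, chr11:103773925-103774149: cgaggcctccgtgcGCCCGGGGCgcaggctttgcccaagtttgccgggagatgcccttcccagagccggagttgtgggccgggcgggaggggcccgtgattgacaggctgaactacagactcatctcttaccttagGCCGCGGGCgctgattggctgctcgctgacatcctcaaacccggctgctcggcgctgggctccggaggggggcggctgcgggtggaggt
Wnt9b, chr11:103749822-103750071: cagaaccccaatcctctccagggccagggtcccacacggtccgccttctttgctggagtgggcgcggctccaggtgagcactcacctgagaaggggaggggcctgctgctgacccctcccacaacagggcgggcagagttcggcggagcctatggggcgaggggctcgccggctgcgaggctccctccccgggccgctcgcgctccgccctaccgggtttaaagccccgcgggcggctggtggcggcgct
Wnt4, chr4:137277385-137277488: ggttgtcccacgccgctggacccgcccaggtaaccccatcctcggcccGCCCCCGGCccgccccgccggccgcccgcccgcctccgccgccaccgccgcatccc
Wnt6, chr1:74771642-74771891: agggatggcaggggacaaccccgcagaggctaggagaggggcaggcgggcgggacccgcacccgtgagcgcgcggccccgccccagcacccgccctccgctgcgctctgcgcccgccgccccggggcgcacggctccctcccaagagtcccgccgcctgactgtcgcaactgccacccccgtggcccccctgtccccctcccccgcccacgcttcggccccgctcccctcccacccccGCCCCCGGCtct
The motif was found 2 times before Wnt3, 1 time each before Wnt4 and Wnt6, and not in the window before Wnt9b. Windows were on hand for 7 of the 10 genes, and 5 of these held the motif, as did 13.7% of all 32851 RefSeq windows of 250 bases and 36.9% of the 5587 windows with at least 65% G and C. The 7 windows held from 66.8% (Wnt10b) to 83.65% (Wnt4) G and C, and the fixed letters of the motif are all G or C. Whether 5 of 7 is more than in windows of like G and C content was not tested. Beside Wnt3, Wnt4 and Wnt6 the motif was before Wnt10b and Wnt11, which were in too few cells to be called with Tfap2b. The Wnt4 and Wnt3 windows were shorter than 250 bases, at 104 and 225. The TCF/LEF motifs CTTTGAA and CTTTGAT, searched on both strands, were in 1 of the 7 windows, that of Wnt11. They were in 4.46% and 3.21% of all windows, and in 0.913% and 0.698% of those with at least 65% G and C. A match to these letters is a description and not evidence of binding.

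After the removal of cells outside 200 to 5500 genes or above 10% mitochondrial UMIs, the E12.0 library kept 11355 cells with 77936364 UMIs and the E9.5 library 12744 cells with 166191431. A UMI marks 1 captured transcript molecule. The median cell held 6349 UMIs in the E12.0 and 13460.5 in the E9.5 library, and 44 of the kept barcodes occurred in both libraries. Levels are given as CPM, the UMIs of a gene per 1000000 UMIs of the cell group, each with its exact 95% Poisson interval in parentheses, and these intervals cover counting error only. The 3′ libraries count molecules, so levels of different genes were compared without a correction for length. Since there was 1 library for each stage, no test was made, and a gene was called higher by size, when its CPM was at least 1.3 times that of the cells compared and at least 15% of the cells on the higher side showed it. Fold intervals are exact intervals for the ratio of 2 counts.

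Zones of the E12.0 epithelium were defined by gates on marker UMIs. The gates were Gjb2 and Gjb6 for the ventral epithelium (1202 cells), Pthlh, Unc5c and Runx1 for the anterior-dorsal (3322 cells), Irx1 for the dental (1617 cells), Shh (258 cells), Dmrt2 for the posterior-medial (617 cells) and Ppl with Pkp1 for the periderm (594 cells). Another 5315 cells met no gate, and this group was added after values had been seen. Gates shared cells, and 1347 cells met 2 or more. Another gate was also met by 1175 anterior-dorsal, 710 Irx1, 212 Shh, 296 Dmrt2, 370 periderm and 154 ventral cells. Intervals for the ratio of 2 gates treat their counts as independent, so where gates share cells they are only a guide to the order. In the ventral gate 4 of 5 ventral and aboral markers were at least 1.3 times their level in all cells, and the other, Msx1, was at 0.983 times. All 6 initiation knot markers were raised in the Shh gate, by 11.04 to 31.7 times. The Irx1 gate raised 6 of 6 dental markers, the Dmrt2 gate 5 of 5 posterior-medial markers and the periderm gate 5 of 6, with Krt4 at 0. The anterior-dorsal gate raised 3 of 3 of its own markers but also 2 of 6 dental ones. Its own markers summed to 313.6 CPM there and to 350.4 CPM in the Dmrt2 gate, so their sum did not set it apart from posterior-medial cells. This gate is therefore called by its genes from here on and is marked anterior-dorsal in the plots. Gated cells were deeper (median 6704 to 7421 UMIs) than ungated cells (5907) and held more called doublets (7.98 to 10.8% against 2.13%). The summed level of 6 mesenchyme markers was 52.6 to 98.3 CPM over these groups, mostly from Snai2 (66.8 CPM in all cells), and the 3 blood markers were at 0 in every group.

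At E12.0, 9 of the 10 ligand genes were found in more than a few cells and together reached 1409 CPM (1401 to 1417). Wnt4 was the most abundant with 631 CPM (625 to 636), followed by Wnt6 with 265 CPM (261 to 269), Wnt7b with 215 CPM (212 to 219), Wnt5a with 101 CPM (98.8 to 103), Wnt3 with 90.7 CPM (88.6 to 92.9) and Wnt9b with 72.5 CPM (70.6 to 74.4). Wnt10a (16.4 CPM), Wnt7a (11.8 CPM) and Wnt10b (5.16 CPM) were far lower. Wnt11 was close to absent, with 19 UMIs in all 11355 cells. The order of the zones differed from gene to gene, as the plot of CPM by gate shows.

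**Figure D1:**
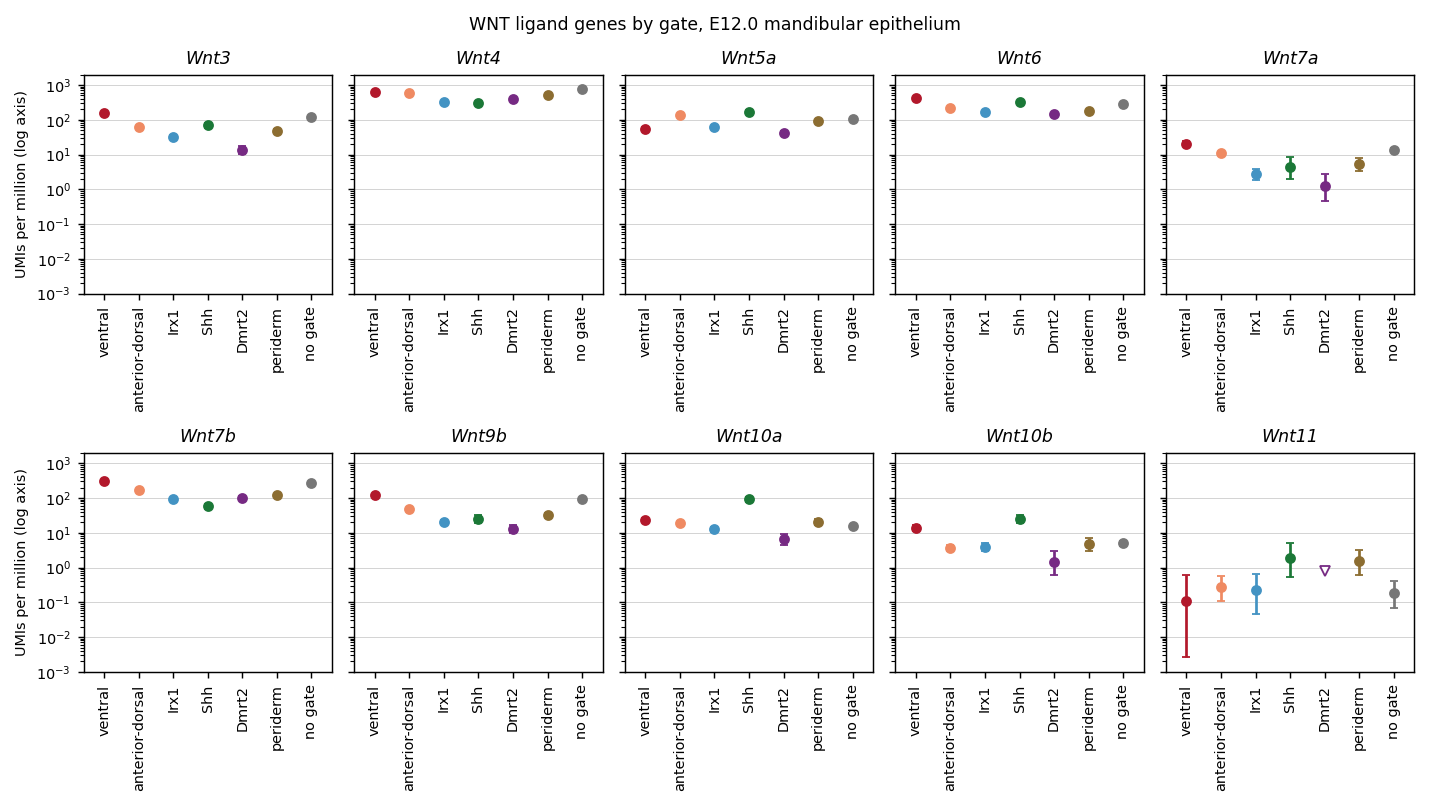
Level of each WNT ligand gene in the cell groups of the E12.0 library, in CPM on a log axis, with points for the group sums, bars for exact 95% Poisson intervals and an open triangle for the upper limit where no UMI was found. Wnt3, Wnt6, Wnt7b and Wnt9b peaked in the ventral gate, whereas Wnt10a and Wnt10b peaked in the Shh gate at 91.0 and 25.05 CPM.

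Wnt4, which directs epithelial structures in the kidney and other organs, was present in most cells of every zone. Its level was 754 CPM (745 to 763) in ungated cells, 628 (612 to 644) in the ventral gate and 607 (597 to 616) in the Pthlh, Unc5c and Runx1 gate. It was 506 (486 to 528) in the periderm gate, 389.9 (372 to 408) in the Dmrt2 gate, 332 (322 to 342) in the Irx1 gate and 309 (285 to 334) in the Shh gate. Irx1 and Shh cells did not differ beyond the interval of their ratio, and each of the other neighbours in this order did. As a ratio of highest to lowest level, Wnt4 thus varied less than any other ligand gene with 1 or more UMIs in every gate.

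Wnt6, an ectodermal ligand, had 434 CPM (420 to 447) in the ventral gate and 324 (299.6 to 349) in the Shh gate. It had 292 CPM (286 to 298) in ungated cells, 222 (216 to 228) in the Pthlh, Unc5c and Runx1 gate, 182 (170 to 195) in the periderm gate, 172 (165 to 179) in the Irx1 gate and 146 (135 to 157) in the Dmrt2 gate. Periderm and Irx1 cells could not be separated. Wnt7b, a ligand of the oral ectoderm, shared the ventral peak with 318 CPM (306 to 329) and was lowest in the Shh gate with 57.3 CPM (47.5 to 68.6). Its levels between these were 268 CPM in ungated cells, 168 in the Pthlh, Unc5c and Runx1 gate, 119 in the periderm gate, 102 in the Dmrt2 gate and 95.5 in the Irx1 gate, of which the last 2 did not differ beyond their interval. Wnt6 and Wnt7b therefore ranked similarly in most zones and apart in Shh cells, where Wnt6 was the runner-up of its order and Wnt7b the last.

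The neighbours Wnt3 and Wnt9b, both linked to closure of the lip, followed the same zones. Wnt3 had 159 CPM (151 to 167) in the ventral gate, 117 (113 to 121) in ungated cells, 68.9 (58.0 to 81.1) in the Shh gate, 62.6 (59.6 to 65.7) in the Pthlh, Unc5c and Runx1 gate, 48.1 (41.9 to 54.9) in the periderm gate, 32.5 (29.5 to 35.7) in the Irx1 gate and 13.8 (10.6 to 17.6) in the Dmrt2 gate. Wnt9b had 121 CPM (114 to 129) in the ventral gate, 96.1 (92.7 to 99.5) in ungated cells, 49.7 (47.1 to 52.5) in the Pthlh, Unc5c and Runx1 gate, 32.2 (27.2 to 37.9) in the periderm gate, 25.5 (19.1 to 33.4) in the Shh gate, 20.9 (18.5 to 23.6) in the Irx1 gate and 13.1 (10.1 to 16.9) in the Dmrt2 gate. Both genes were highest in ventral and lowest in Dmrt2 cells, with Shh cells in the middle for Wnt3 and low for Wnt9b. Wnt3 UMIs outnumbered Wnt9b UMIs by 1.25 times (1.21 to 1.296) in all E12.0 cells, by 1.31 (1.21 to 1.41) in the ventral gate and by 2.70 (1.96 to 3.77) in the Shh gate, while the interval in the Dmrt2 gate (0.729 to 1.51) included 1.

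Wnt5a, which acts mostly without β-catenin and steers cell movement and outgrowth, followed another order of zones. It was highest in the Shh gate with 171 CPM (154 to 189.7), then 134 (129.6 to 139) in the Pthlh, Unc5c and Runx1 gate, 106 (102 to 110) in ungated cells and 91.7 (83.02 to 101) in the periderm gate. It was 62.2 CPM (58.0 to 66.6) in the Irx1 gate, 55.6 (50.9 to 60.7) in the ventral gate and 42.4 (36.7 to 48.7) in the Dmrt2 gate. With ungated cells set aside, the ventral gate was thus the peak of Wnt3, Wnt4, Wnt6, Wnt7b and Wnt9b. For Wnt5a it was the lowest gate but 1, and it did not differ from the Irx1 gate beyond the interval.

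Wnt10a and Wnt10b, known from the early tooth placode, were highest in the Shh gate. Wnt10a had 91.0 CPM (78.5 to 105) there against 23.9 (20.9 to 27.3) in the ventral gate, 21.02 (17.0 to 25.7) in the periderm gate, 18.7 (17.1 to 20.5) in the Pthlh, Unc5c and Runx1 gate, 15.5 (14.2 to 16.9) in ungated cells, 12.6 (10.8 to 14.7) in the Irx1 gate and 6.57 (4.47 to 9.33) in the Dmrt2 gate. Wnt10b had 25.05 CPM (18.7 to 32.8) in the Shh gate and 13.9 (11.6 to 16.5) in the ventral gate, and between 1.48 and 4.93 CPM in the others. Only these 2 ligand genes were at least 5 times higher in Shh cells than in all other cells, among those with 10 or more UMIs in the gate. Wnt6, next to Wnt10a in the genome, gave 16.2 times (15.3 to 17.1) as many UMIs as Wnt10a in all E12.0 cells but 3.56 times (3.02 to 4.20) in the Shh gate.

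Wnt7a, best known from dorsal limb ectoderm, had 20.5 CPM (17.7 to 23.7) in the ventral gate, 13.6 (12.4 to 14.9) in ungated cells and 10.8 (9.55 to 12.1) in the Pthlh, Unc5c and Runx1 gate. In the periderm, Shh, Irx1 and Dmrt2 gates it had 5.37, 4.33, 2.72 and 1.27 CPM, and no neighbours among these 4 could be separated. Wnt11, a ligand of cell movement, had at most 7 UMIs in any group, and its 0 UMIs in the Dmrt2 gate allow up to 0.636 CPM at a floor of 3 counts, where the exact interval ends at 0.782.

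Counted by the size rule, the raised ligand genes differed between zones, and the Irx1, Dmrt2 and periderm gates had none. From this same E12.0 library, the study names all of the ligand genes but Wnt11 as expressed by the anterior epithelium. The shares called higher in ventral and aboral cells, beside those of all genes, are therefore not independent of how the genes were chosen. In the ventral gate, 5 of the 7 ligand genes seen in at least 15% of its cells were called higher than in all other cells, whereas 5.32% of the 6370 genes seen as often were. These were Wnt3 (log2 fold 0.96, 0.87 to 1.04), Wnt9b (0.88, 0.78 to 0.97), Wnt6 (0.84, 0.79 to 0.89), Wnt7b (0.66, 0.60 to 0.71) and Wnt10a (0.64, 0.42 to 0.85). Wnt5a was called lower by -0.94 (-1.08 to -0.81), where 5.28% of all genes were called lower. Wnt4 was at -0.01 (-0.05 to 0.03). The other cells compared include 2838 ungated cells with at least 2 UMIs of Tfap2b, described below. In these Wnt4 was at 918 CPM, against 628 in the ventral gate. Wnt3, Wnt7b and Wnt9b were also above the ventral gate there, and Wnt6 and Wnt10a below it. No ligand gene reached a fold of 2 in this gate at the required share of cells. Wnt10b was further apart (1.80, 1.49 to 2.11) but had a UMI in 9.98% of ventral cells and so was not called.

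In the Pthlh, Unc5c and Runx1 gate only Wnt5a was called higher (log2 fold 0.66, 0.60 to 0.73, background 2.31%). Wnt9b (-0.75), Wnt3 (-0.74) and Wnt7b (-0.50) were called lower there, where 1.36% of genes were. In the cells that met this gate alone, Wnt7b was at -0.24 and no longer past the fold. In the Irx1 gate 0 ligand genes were called higher (background 3.98%) and 6 of 6 lower (background 5.23%), from Wnt9b at -1.99 (-2.17 to -1.81) and Wnt3 at -1.66 (-1.80 to -1.52) to Wnt6 at -0.72 (-0.79 to -0.66). The Dmrt2 gate had the same count, with 0 called higher (background 6.62%) and 6 of 6 called lower (background 4.67%). There Wnt3 (-2.80, -3.17 to -2.44) and Wnt9b (-2.54, -2.92 to -2.18) were furthest down and Wnt4 (-0.73, -0.80 to -0.66) the least. The periderm gate had 0 called higher (background 9.94%) and 4 called lower (background 6.06%), namely Wnt9b (-1.22), Wnt3 (-0.96), Wnt7b (-0.90) and Wnt6 (-0.57).

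The Shh gate was mixed. Wnt10a (log2 fold 2.67, 2.44 to 2.89), Wnt10b (2.44, 1.99 to 2.86) and Wnt5a (0.79, 0.63 to 0.94) were called higher, against a background of 13.0% of genes in this small gate. Wnt7b (-1.94, -2.21 to -1.68), Wnt9b (-1.53, -1.95 to -1.14), Wnt4 (-1.05, -1.17 to -0.94) and Wnt3 (-0.41, -0.66 to -0.17) were called lower, against 12.3%. Of the 258 cells, 212 also met another gate. In the 46 that met no other, 0 ligand genes passed the rule, with Wnt10b at 2.18, Wnt10a at 0.54 and Wnt5a at 0.26. A further split was made after values had been seen. Shh is also known from taste bud precursors of the tongue and from endoderm, where Foxa1 and Foxa2 are expressed. The 24 Shh cells of this sorted epithelium with a UMI of either had 4 Wnt10a UMIs (18.6 CPM) and 0 of Wnt10b, against 185 (99.4 CPM) and 52 (27.9 CPM) in the 234 cells without. Cells with Foxa UMIs were 13 of the 46 cells that met the Shh gate alone. Over the ligand genes, 5 were called higher in the cells without Foxa UMIs (background 27.0%) and 0 lower (background 26.9%), and with 24 cells the size rule is loose.

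Ungated cells had the most Wnt4, and they fell into different levels with Tfap2b, a marker of ventral and aboral epithelium. The split by Tfap2b was made after values had been seen. In the 2838 ungated cells with at least 2 UMIs of Tfap2b the ligand genes summed to 2121 CPM (2100 to 2142), above the ventral gate with 1773 (1746 to 1801), and in the 2013 with none to 919 CPM (901 to 936). All 6 ligand genes seen in at least 15% of the Tfap2b cells were called higher in them (background 6.10%) and 0 lower (background 4.77%). Wnt9b differed most, with 145 against 19.6 CPM (log2 fold 2.89, 2.69 to 3.09), followed by Wnt3 with 168 against 32.9 CPM (2.36, 2.20 to 2.52) and Wnt7b with 351 against 134 CPM (1.39, 1.31 to 1.47). Wnt5a (130 against 64.7 CPM), Wnt6 (362 against 183 CPM) and Wnt4 (918 against 469.8 CPM) were each about 1 apart on the log2 scale, at 1.01, 0.99 and 0.97. Wnt5a was thus raised with Tfap2b in ungated cells although it was low in the ventral gate, where Tfap2b was at 1039 CPM. Tfap2b cells were also deeper, with a median of 6227.5 UMIs against 5572, and held 3.24% called doublets against 0.646%, and the part of these in the difference was not tested.

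The median log2 fold over the ligand genes was 0.75 in the ventral gate (all genes -0.01), -0.28 in the Pthlh, Unc5c and Runx1 gate (0.01), -0.93 in the Irx1 gate (0.01), -0.05 in the Shh gate (-0.01) and -0.45 in the periderm gate (-0.02), and -1.37 over the 9 genes with UMIs in the Dmrt2 gate (0.03). The make-up of the ligand UMIs also differed between groups. Wnt4 gave 28.7% of them in the Shh gate, 35.4% in the ventral gate and between 45.2 and 54.4% in the other groups. Wnt6 gave 17.4 to 30.0% and Wnt7b 5.32 to 17.9%. Wnt5a ranged from 3.14% in ventral to 15.9% in Shh cells. Wnt10a made up 8.45% in Shh cells and at most 2.08% elsewhere.

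**Figure D2:**
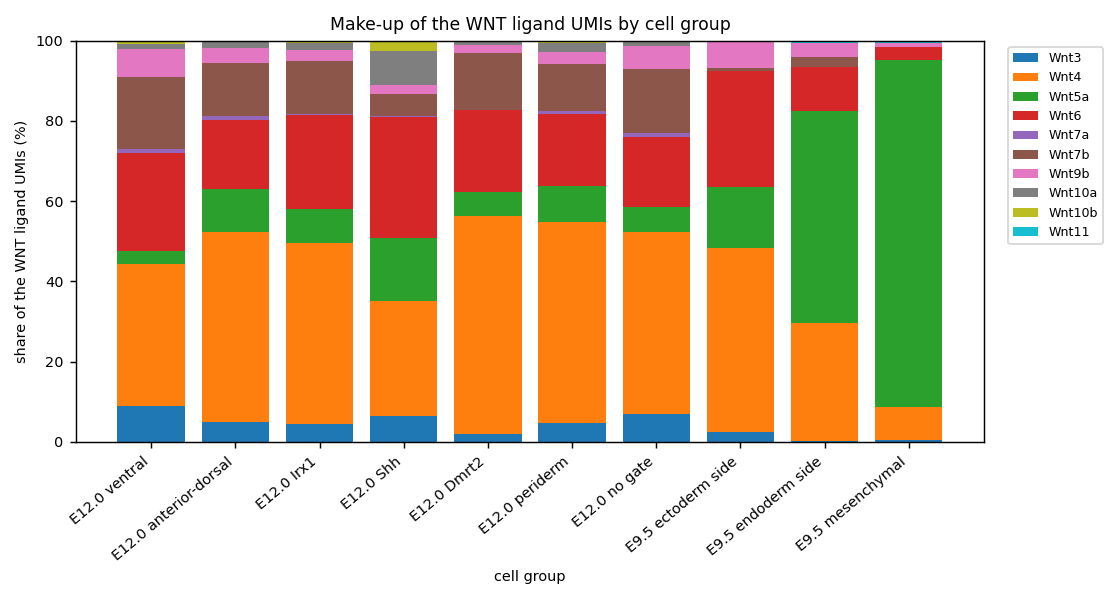
Share of each gene in the UMIs of the 10 WNT ligand genes, in percent, for the E12.0 gates, the E12.0 cells in no gate and 3 E9.5 cell groups. Wnt4 was the largest part in each E12.0 group but the Shh gate, where Wnt6 was (30.0%). There the ratio of Wnt4 to Wnt6 UMIs was 0.954 (0.855 to 1.06), an interval that includes 1. Wnt5a made up 86.5% of the E9.5 mesenchymal gate.

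At E9.5 the comparison asked which ligands the arch epithelium already made and which came from the mesenchyme. Epithelial cells were gated by Epcam and Cdh1 (2813 cells) and mesenchymal cells by Twist1, Prrx1 and Prrx2 (6787 cells). The epithelial gate raised 6 of 6 epithelial markers, although Krt5 was at 0.326 CPM there against 500.4 in the E12.0 library. The mesenchymal gate put 5 of 6 mesenchyme markers above all cells, but only 3 by at least 1.3 times. Its ratios ran from 0.866 to 1.505. Summed, these markers were at 111 CPM in the mesenchymal and 19.7 CPM in the epithelial gate. Ligand genes summed to 315 CPM (309.7 to 321) in the epithelial gate, 79.7 (78.0 to 81.5) in the mesenchymal, 44.4 (40.6 to 48.6) in the Sox10 neural crest gate (580 cells) and 18.7 (14.9 to 23.2) in the endothelial gate (295 cells). Cells of the mesenchymal gate were not left out of the neural crest and endothelial gates, so these groups share cells. Of the 4 ligand genes seen in at least 15% of epithelial cells, 3 were called higher than in mesenchyme (background 26.7%) and 0 lower (background 13.6%).

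These were Wnt4, with 141 CPM (137 to 145) against 6.54 (6.05 to 7.05), Wnt6, with 86.6 CPM (83.6 to 89.7) against 2.51 (2.22 to 2.84), and Wnt9b, with 20.4 CPM (19.0 to 21.9) against 0.796 (0.633 to 0.988). The log2 folds were 4.43 (4.32 to 4.55), 5.11 (4.92 to 5.29) and 4.68 (4.35 to 5.03). Wnt4 was at a like level in mesenchymal, neural crest (6.57 CPM) and endothelial cells (6.02 CPM), groups that share cells. After thinning of each cell to 4000 UMIs, 2.40% of mesenchymal and 2.07% of endothelial cells had a Wnt4 UMI (8.12 and 7.80% before thinning, at medians of 15615 and 14526 UMIs), and the intervals of these shares overlapped (2.04 to 2.81% and 0.763 to 4.45%). In mesenchymal cells Wnt4 and Wnt6 occurred together 5.77 times (2.64 to 10.9) as often as the product of their shares, from 9 cells. The part of free RNA in the mesenchymal Wnt4 level was not tested. Globin RNA from blood cells, Hbb-y, was at 350.2 CPM in mesenchymal and 302 CPM in endothelial cells. It was not even over all groups. The 3 blood markers summed to 371 CPM in mesenchymal, 318 in endothelial, 557 in neural crest and 239 in epithelial cells.

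Wnt5a was the exception, with 56.3 CPM (53.9 to 58.8) in epithelial and 69.0 CPM (67.4 to 70.6) in mesenchymal cells, a log2 fold of -0.29 (-0.36 to -0.22) that did not reach the size rule. It was 34.4 CPM (31.01 to 38.1) in neural crest and 8.92 CPM (6.37 to 12.1) in endothelial cells. In mesenchyme 21.7% of thinned cells had a Wnt5a UMI (48.0% before thinning) against 2.07% of endothelial cells (9.83% before). The mesenchymal Wnt5a was thus well above the endothelial background, and it was 86.5% of all ligand UMIs in that gate. Wnt3 was epithelial as well, with 7.44 CPM (6.58 to 8.37) against 0.398 (0.286 to 0.540), but was seen in 8.39% of epithelial cells. Wnt7b had 96 UMIs (2.61 CPM) in epithelial cells, Wnt10a 13, Wnt11 13, Wnt7a 2 and Wnt10b 1.

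**Figure D3:**
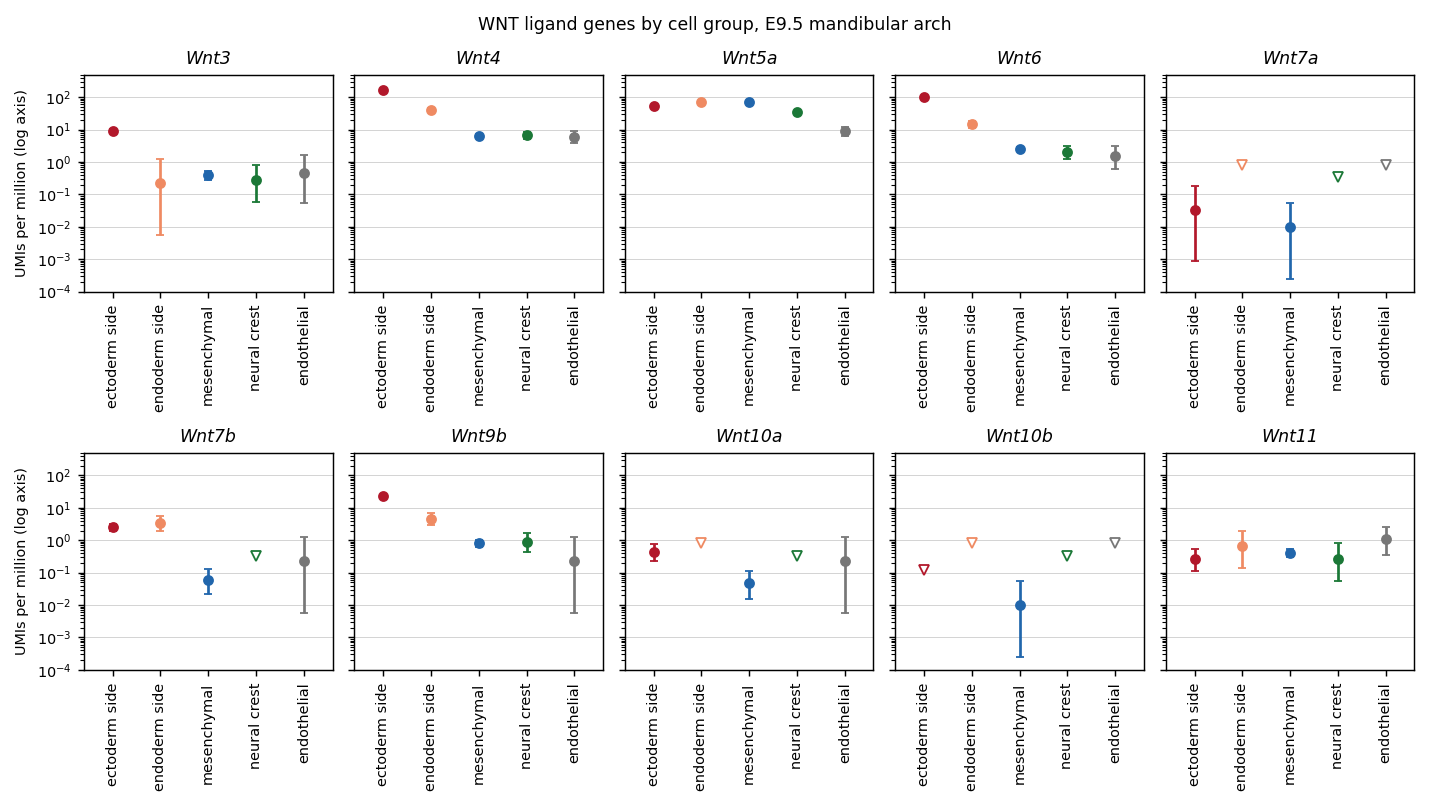
Level of each WNT ligand gene in 5 cell groups of the E9.5 library, in CPM on a log axis, with points for the group sums, bars for exact 95% Poisson intervals and open triangles for the upper limit where no UMI was found. Wnt3, Wnt4, Wnt6 and Wnt9b were highest on the ectoderm side, whereas Wnt5a was at 54.3 CPM there, 70.7 on the endoderm side and 69.0 in mesenchyme. The mesenchymal, neural crest and endothelial groups share cells.

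Within the epithelial gate, 2291 cells without Foxa2, Pax1 and Shh UMIs were taken as the ectoderm side and 315 with at least 2 as the endoderm side. Ectoderm cells had 162 CPM (157 to 167) of Wnt4 against 39.3 (33.7 to 45.5), 102 CPM (98.5 to 106) of Wnt6 against 14.7 (11.4 to 18.7), and 23.6 CPM (21.9 to 25.4) of Wnt9b against 4.68 (2.90 to 7.16). These 3 of 4 genes were called higher on the ectoderm side (background 4.35%), with log2 folds of 2.04, 2.79 and 2.33. Wnt5a was called lower, at -0.38 (-0.56 to -0.20, background 6.72%). Wnt3 had 266 UMIs on the ectoderm side and 1 on the endoderm side, and Wnt7b did not separate them, with 2.52 against 3.35 CPM.

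The ectoderm side was split again by Vgll2 and by Tfap2b. The 1102 cells without Vgll2 had 217 CPM of Wnt4, 148 of Wnt6 and 33.8 of Wnt9b, against 116, 58.4 and 14.4 CPM in the 946 with at least 2 UMIs of it. All 3 were called higher without Vgll2 (background 11.5%) and 0 lower (background 4.59%), while Wnt5a was at 57.3 and 50.2 CPM. Cells without Vgll2 were shallower, with a median of 10582 against 14839.5 UMIs. Only 47 ectoderm cells had at least 2 UMIs of Tfap2b. In these Wnt6 was at 212 CPM (179 to 249) against 95.3 in the 2088 cells without it, Wnt4 at 228 (193 to 267) against 157 and Wnt9b at 32.4 (20.3 to 49.0) against 22.6, so that 3 genes were called higher (background 14.1%), although the interval of Wnt9b (-0.17 to 1.13) included 0. Wnt5a was called lower in them (-0.77, -1.45 to -0.16, background 11.8%), which is the other direction from its difference between the ungated E12.0 cells split by Tfap2b. In mesenchyme, cells with Hand2, a marker of the ventral arch, had 69.4 CPM of Wnt5a against 66.5 without. Wnt5a was the only ligand gene in enough of these cells to be called, and 0 were called in either direction (backgrounds 8.45% and 2.45%). Wnt6 was at 4.87 against 2.16 CPM (log2 fold 1.17, 0.67 to 1.65), in 5.75 and 2.87% of cells. Wnt11 was at 0.973 against 0.378 CPM (1.36, 0.11 to 2.46), from 9 and 32 UMIs. No other ligand gene had an interval apart from 0.

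Between the stages, all 6 ligand genes seen in at least 15% of E12.0 cells were called higher at E12.0 than in the E9.5 epithelial gate, and 0 were called lower. The background was high, with 42.8% of genes called higher and 27.1% called lower between these libraries. The median gene seen in at least 15% of the cells on either side was 0.09 higher on the log2 scale at E12.0. Wnt7b stood out with 16782 UMIs (215 CPM) at E12.0 against 96 (2.61 CPM) at E9.5, a log2 fold of 6.37 (6.08 to 6.67). Wnt3 followed with 3.61 (3.43 to 3.79), Wnt4 with 2.16 (2.12 to 2.20), Wnt9b with 1.83 (1.72 to 1.94), Wnt6 with 1.61 (1.56 to 1.67) and Wnt5a with 0.84 (0.77 to 0.91). The rarer Wnt10a, Wnt7a and Wnt10b, in too few cells to be called, went from a handful of UMIs to many. Wnt10a had 1276 UMIs at E12.0 against 13 (5.54, 4.76 to 6.45), Wnt7a 920 against 2 (7.76, 5.91 to 10.8) and Wnt10b 402 against 1 (7.57, 5.08 to 12.9). Wnt11 had 19 against 13 UMIs and did not differ beyond its interval (-0.53, -1.63 to 0.61).

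**Figure D4:**
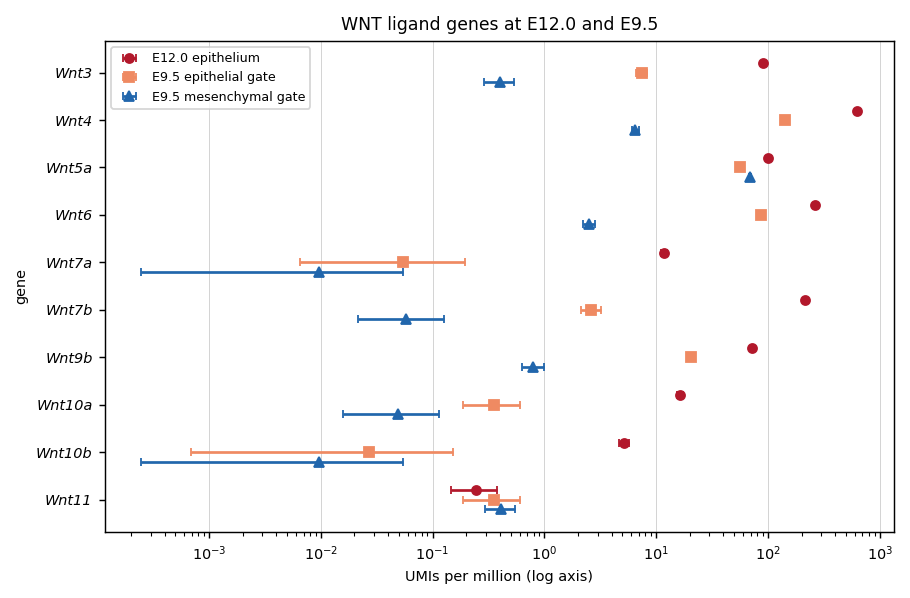
Level of each WNT ligand gene in all E12.0 epithelial cells, in the E9.5 epithelial gate and in the E9.5 mesenchymal gate, in CPM on a log axis with exact 95% Poisson intervals. Wnt7b, Wnt7a, Wnt10a and Wnt10b lie furthest apart between the stages, and Wnt5a was the only one of the 6 genes above 70 CPM at E12.0 whose mesenchymal level (69.0 CPM) exceeded its E9.5 epithelial one.

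The balance of neighbouring genes also differed between stages. Wnt3 gave 0.364 times (0.316 to 0.418) as many UMIs as Wnt9b in the E9.5 epithelial gate but 1.25 times as many at E12.0. Wnt6 gave 245 times (143 to 462) as many as Wnt10a at E9.5, where Wnt10a had 13 UMIs, and 16.2 times as many at E12.0. Fewer cells with a transcript and less transcript in each cell cannot be told apart in these group sums.

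How many ligand genes a cell showed was counted in cells drawn down to 4000 UMIs, so that 916 shallower E12.0 cells and 1715 shallower E9.5 cells were left out. A cell showed 2.75 of the 10 genes on average at E12.0 (3.43 before thinning) and 0.948 in the E9.5 epithelial gate (1.85 before). Ventral cells showed 3.60, ungated cells 3.07, Pthlh, Unc5c and Runx1 cells 2.51, Shh cells 2.38, periderm cells 2.08, Irx1 cells 1.72 and Dmrt2 cells 1.63. At least 3 ligand genes were seen in 83.6% (81.3 to 85.7) of ventral, 47.6% (45.8 to 49.3) of Pthlh, Unc5c and Runx1, 46.0% (39.7 to 52.4) of Shh, 32.5% (28.6 to 36.6) of periderm, 25.2% (23.0 to 27.4) of Irx1 and 19.0% (15.9 to 22.4) of Dmrt2 cells, with exact binomial intervals. A ventral cell without any was rare (6 of 1159). At E9.5, 5.84% (5.00 to 6.78) of epithelial cells showed 3 or more and 62.4% at least 1, against 24.7% of mesenchymal and 4.83% of endothelial cells with at least 1. None of 2774 E9.5 epithelial cells showed 5 or more, whereas 15.5% of E12.0 cells did. The count of 0 allows a share of up to 0.108% at a floor of 3 cells, where the exact interval ends at 0.133%.

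**Figure D5:**
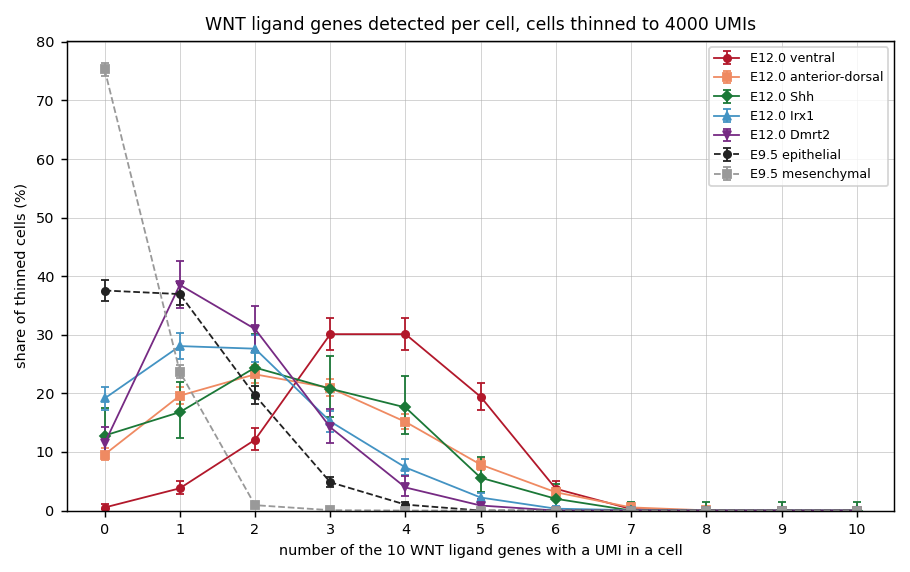
Share of cells, in percent, by the number of the 10 WNT ligand genes with a UMI, for 5 E12.0 gates (solid lines) and the E9.5 epithelial and mesenchymal gates (dashed lines), each cell thinned to 4000 UMIs, with exact 95% binomial intervals. Ventral cells peaked at 3 and 4 genes (30.1% each), Dmrt2 cells at 1 (38.5%) and E9.5 mesenchymal cells at 0 (75.3%).

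In thinned E12.0 cells, a Wnt4 UMI was seen in 84.5% of ventral, 76.1% of Pthlh, Unc5c and Runx1, 74.9% of periderm, 72.4% of Dmrt2, 59.2% of Shh and 57.0% of Irx1 cells (72.9 to 93.8% before thinning), against the 2.07% of E9.5 endothelial cells. Wnt10a was seen in 28.0% of thinned Shh cells (39.5% before) and in 9.58% of ventral cells, against 0.345% of endothelial cells. Wnt7b went from 70.1% of ventral to 10.0% of Shh cells. The E12.0 library held no cell type that should lack these genes, so its own background was not measured. The E9.5 endothelial shares describe that library only and do not bound the E12.0 background. All E9.5 cells held 7652 Wnt4 and 24 Wnt10a UMIs, against 49161 and 1276 in all E12.0 cells.

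Ligand genes were also counted together in the same thinned cells and set against the product of their shares. Wnt3 and Wnt9b were found together as often as the product in ventral cells (0.993 times, 0.871 to 1.12), but 2.28 times (1.98 to 2.62) as often in Pthlh, Unc5c and Runx1 cells, 2.94 times (1.98 to 4.21) in Irx1 cells and 2.12 times (1.21 to 3.44) on the E9.5 ectoderm side. Pairs that are not neighbours were above the product too. Wnt7a with Wnt9b was at 2.12 (1.52 to 2.87) in Pthlh, Unc5c and Runx1 cells, and Wnt7b with Wnt9b at 1.83 (1.33 to 2.47) in Irx1 cells. Wnt7b with Wnt10b was below it in Pthlh, Unc5c and Runx1 cells (0.534, 0.256 to 0.981). Wnt10a and Wnt10b occurred together 3.96 times (2.05 to 6.91) as often as the product in Pthlh, Unc5c and Runx1 cells, from 12 cells, and 1.72 times (0.925 to 2.89) in Shh cells, where the interval includes 1. Wnt4 and Wnt6, present in most cells, stayed near the product in the ventral gate (1.01, 0.975 to 1.05) and were at 1.21 times (1.09 to 1.33) on the E9.5 ectoderm side. These cells share a library, and the gates still pool cells of several positions.

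Over the 6 E12.0 gates, each taken from cells that met it alone, and 5 E9.5 groups, the pattern of each ligand gene was compared with 8650 genes by Pearson's r of log2(CPM + 5). These 11 points share 2 libraries, and the step between the stages enters every value. Wnt9b was most like Plbd1 (0.985) and then Wnt3 (0.964), the only case where another ligand gene was among the 2 most alike. Wnt3 was most like Csad (0.977) and Plppr1 (0.976), Wnt4 like Grip1 (0.982) and Fgfr2 (0.977), Wnt6 like Sema3a (0.988) and Trp63 (0.979), and Wnt7b like Fam134c (0.990) and Nckap5 (0.988). Wnt10a was nearest to Usp33 (0.984) and Spata2 (0.983) and Wnt10b to Itm2c (0.947) and Jakmip2 (0.941). The Shh point here held only the 46 cells that met that gate alone. Over the 11 points Wnt10a reached at most 24.4 CPM, against 91.0 in the whole Shh gate, so that peak was not in the values compared. Wnt5a had no close partner, with Nfatc4 at 0.901 and Tbx3 at 0.851, and its r with the other abundant ligand genes was between 0.447 and 0.528.

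The remaining genes of the pathway were counted by the same rule. None of the other 9 WNT genes was seen in 15% of the cells of any group. The most abundant at E12.0 were Wnt3a (9.39 CPM), Wnt5b (6.97), Wnt9a (2.22) and Wnt16 (0.565, but 10.6 in the Shh gate), and Wnt3a had 1 UMI in all E9.5 cells. Of the secretion genes, Wls was at 385 CPM in E12.0 cells and at 197 CPM in E9.5 epithelial against 75.1 CPM in mesenchymal cells, and Porcn was at 6.22 CPM at E12.0. Wls was called higher in the ventral gate (494 against 371 CPM) and lower in the Irx1 (288 against 405 CPM) and Shh gates (282 against 388 CPM). In the Pthlh, Unc5c and Runx1, Dmrt2 and periderm gates it was at 337, 322 and 319 CPM and was not called.

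Among 16 receptor genes, 2 were called higher in the ventral gate, the Frizzled receptor Fzd10 (157 against 44.4 CPM) and Ryk (383 against 215 CPM), and 1 lower, Fzd1, where 5.32% and 5.28% of all genes were. In the Dmrt2 gate 5 were called higher (background 6.62%) and 3 lower (background 4.67%), with Fzd4 (34.8 against 12.9 CPM) furthest up and Fzd10 (16.3 against 60.4 CPM) furthest down. Of the 9 receptors seen in enough E12.0 cells to be called higher than in E9.5 epithelium, 7 were (background 42.8%). Of the 9 seen in enough E9.5 epithelial cells to be called lower at E12.0, 4 were (background 27.1%). Both shares were above the background, from few genes. Fzd10 changed most (57.7 against 1.74 CPM, log2 fold 5.05, 4.70 to 5.43), and Ror2, a receptor for Wnt5a, went down (10.3 against 29.8 CPM, -1.54).

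Of 9 genes that respond to β-catenin signaling, 7 were called higher in the Shh gate and 0 lower (backgrounds 13.0% and 12.3%). The furthest were Notum, which encodes an enzyme that inactivates WNT proteins (94.4 against 1.54 CPM), and the transcription factor gene Sp5 (117 against 5.42 CPM), which was also one of the knot markers. Axin2, a negative regulator induced by the pathway, was at 123 against 39.99 CPM in the Shh gate, 75.6 against 37.7 CPM in the ventral gate and 11.2 against 44.2 CPM in the Dmrt2 gate. The ventral gate had 4 response genes called higher and 0 lower (backgrounds 5.32% and 5.28%), and the Dmrt2 gate 0 higher and 4 lower (backgrounds 6.62% and 4.67%). The Irx1 gate, where 6 ligand genes were called lower, had Axin2 called higher (53.3 against 39.9 CPM) and Znrf3, which removes Frizzled receptors, called lower (55.1 against 85.4 CPM), with backgrounds of 3.98% and 5.23%. Between stages, 4 response genes were called higher and 1, Tcf7, lower at E12.0 (backgrounds 42.8% and 27.1%).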

How the data were processed

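Both libraries were 10x Genomics 3′ v3 single-cell RNA-seq. The deposited files hold UMI counts for each gene and barcode, which the authors made with Cell Ranger on GRCm38 (mm10). The submitters' processing notes name version 2.0.0, and the file headers name 3.1.0 for E12.0 and 6.1.2 for E9.5. Counts were not normalised, and the barcodes had already been selected as cells.

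From these counts, barcodes with 200 to 5500 genes and at most 10% mitochondrial UMIs were kept. Gates took cells with at least 3 (ventral), 2 (anterior-dorsal, Shh, periderm) or 1 (Irx1, Dmrt2) summed UMIs of their genes, and a cell could meet several. The E9.5 epithelial gate took at least 3 UMIs of Epcam and Cdh1 with fewer than 3 of Twist1, Prrx1 and Prrx2. UMIs were summed for each group. Cells were thinned to 4000 UMIs (seed 1) for shares and ligands per cell. Doublets called by Scrublet (scanpy 1.11.5) were kept, 540 at E12.0 and 538 at E9.5. Intervals came from scipy 1.17.1 with numpy 2.4.6 and pandas 2.3.3 in Python 3.11.15, and plots from matplotlib 3.10.9. The scripts were tested on simulated data. Positions are from GENCODE and windows before the starts from RefSeq (GRCm38.p6), for 7 of 10 genes. Wnt5a, Wnt7b and Wnt10a had no entry.

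The members and the gene lists were chosen with earlier results of these data known. Named were all 10 members, at most 4 genes of each pathway list by level or fold, and for each member seen in at least 15% of the cells of an E12.0 gate the 2 most alike genes among those with at least 20 CPM in a group. Alternatives varied thinning, gate thresholds, gate overlap, doublets, the gene and mitochondrial limits, the fold (2), the share of cells (25%) and the averaging of CPM. There was 1 library for each stage, so no test was made.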

Additional observations from a re-analysis of the deposited data

Results flagged for a closer look

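Ligand transcripts were also present in barcodes that the filters removed and that no comparison used. In the E12.0 library the 294 barcodes above the mitochondrial limit held 916 ligand UMIs, or 1404 CPM (1315 to 1498), and the 14 above the gene limit held 1155 CPM (1041 to 1278). In the E9.5 library the 9 epithelial-gate barcodes above the mitochondrial limit held 2 ligand UMIs, or 116 CPM (14.1 to 421), and the 158 epithelial-gate barcodes above the gene limit held 261 CPM (247 to 276). The kept cells of the same groups were at 1409 and 315 CPM. The barcodes above the E9.5 gene limit were deep, with a median of 29119.5 UMIs.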

How the results depend on the processing

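The alternatives were run for the counts of ligand genes called higher in the 6 gates, in E9.5 epithelial against mesenchymal cells and between the stages, not for the smaller splits. These counts stayed within 1.5 times of the reported ones, apart from 3 values. With cells that met exactly 1 gate, the Shh gate (46 cells) had 0 in place of 3. With a fold of 2, the ventral gate had 0 in place of 5 and the Pthlh, Unc5c and Runx1 gate 0 in place of 1, since no ligand gene seen in enough cells there reached that fold. The Irx1, Dmrt2 and periderm gates had 0 under every alternative run. The mean number of ligand genes in an E12.0 cell went from 2.75 to 3.43 without thinning, 1.85 at 2000 UMIs and 2.31 with at most 5% mitochondrial UMIs. In an E9.5 epithelial cell it went from 0.948 to 1.85 without thinning and 0.544 at 2000 UMIs. Fewer UMIs in each cell explain the thinned values by construction, and for the mitochondrial limit the cause was not tested. Of the 567 values of single genes and groups, 387 moved by less than their counting interval, 180 moved by more, and none of the called ones changed direction. The alternatives differed in this. With cells that met exactly 1 gate, 37 values moved by more and 21 by less, so levels by zone depended on gate overlap. Without the upper gene limit 86 moved by less, which weighs on the pooled count. No library could be left out, with 1 for each stage. No paired analysis was possible because each stage had 1 library and no test was made. In the E9.5 epithelial gate the values of Wnt7a, Wnt10a, Wnt10b and Wnt11 rested on 1 to 13 UMIs each.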
